A study of Mus musculus with 12 samples.

Results

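Alveolar type II (AT2) cells sorted from the metastatic niche of CT26-bearing mouse lungs were compared with AT2 cells sorted from distal lung of the same tumour model. The comparison takes the 6 libraries whose labels name CT26, 3 from the niche and 3 from distal lung, out of 12 libraries in the series; no library of the other tumour model was used. CT26 is a colon carcinoma line of BALB/c origin. The study asked how AT2 chromatin is remodelled near metastases.

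Every group shared the same host and tumour. BALB/c mice aged 6 to 8 weeks received 800000 CT26 cells carrying a label by tail vein injection, and lungs were taken on day 7. Each sample pooled 5 lungs, so the spread between samples is that between pools and not between single mice. The samples are stated to be biologically independent. The labels do not say how niche cells were told from distal cells, nor whether a niche and a distal sample of the same number came from the same lungs. From each sample 50000 AT2 cells were sorted and put through Omni-ATAC-seq, in which the transposase Tn5 cuts and tags open chromatin, with the same planned depth for each library. The deposited files are lists of broad peaks in GRCm38 coordinates, that is, stretches of chromatin called open. They hold no read counts, so the depth behind each list is unknown, and a difference in depth and a difference in the extent of open chromatin cannot be told apart.

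AT2 cells make surfactant from lamellar bodies, renew themselves and give rise to the thin alveolar type I cells, and their identity rests on transcription factors such as Nkx2-1. They also respond to interferons. Interferon receptors act through Jak kinases and Stat factors on target genes that carry an interferon-stimulated response element (ISRE). Among these targets are the Ifit and Oas antiviral proteins and large families of GTPases, the guanylate-binding proteins (Gbp) and the immunity-related GTPases (Irg), which attack intracellular pathogens. Broad peaks show where chromatin is accessible and not whether a gene is transcribed. In a bulk sample, fewer cells with an open site and a weaker opening per cell cannot be told apart.

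Niche AT2 cells carried more peaks, and more of the genome under peaks, than distal AT2 cells. The niche libraries held 55529, 51430 and 51005 peaks on the autosomes and X, and the distal libraries 48263, 42067 and 50093. The lowest niche library lay just above the highest distal library, and distal replicate 2 had the shortest list of all. The means were 52655 ± 2498 peaks in the niche and 46808 ± 4206 in distal lung (SD, n = 3 each; exact permutation test, two-sided, p = 0.1, the smallest p that 3 against 3 can give). Peaks covered 44.7, 38.2 and 38.4 Mb in the niche libraries and 33.8, 31.4 and 34.4 Mb in the distal libraries, 21.8% more in the niche on average (exact permutation p = 0.1). Niche replicate 1 had the longest covered length, and the other niche libraries still lay above every distal library.

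The gain in length came partly from broader peaks. Peaks over 2 kb numbered 1603, 1010 and 1030 in the niche libraries and 641, 720 and 602 in the distal libraries (exact permutation p = 0.1), again with niche replicate 1 highest and without overlap of the groups. In the 35630 regions that all 6 libraries held, the median length under peaks was 891, 803 and 814 bp in the niche and 736, 728 and 746 bp in distal lung. The same regions thus held more length under peaks in the niche. The median peak over the whole lists overlapped between the groups, at 702, 646 and 658 bp in the niche and 611, 658 and 601 bp in distal lung (exact permutation p = 0.3).

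Niche peaks lay slightly less often at gene ends. The share of peaks with a gene end less than 1 kb away was 23.8%, 25.0% and 25.2% in the niche libraries and 25.8%, 28.5% and 25.3% in the distal libraries (exact permutation p = 0.1). The highest niche and the lowest distal share nearly touched, and without distal replicate 2 the difference of means shrank to -0.883 percentage points, against -1.86 with all libraries. The share inside gene bodies was 45.1%, 44.5% and 44.6% in the niche and 43.3%, 42.4% and 43.8% in distal lung (exact permutation p = 0.1). Outside genes the groups overlapped (exact permutation p = 0.8).

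**Figure D1:**
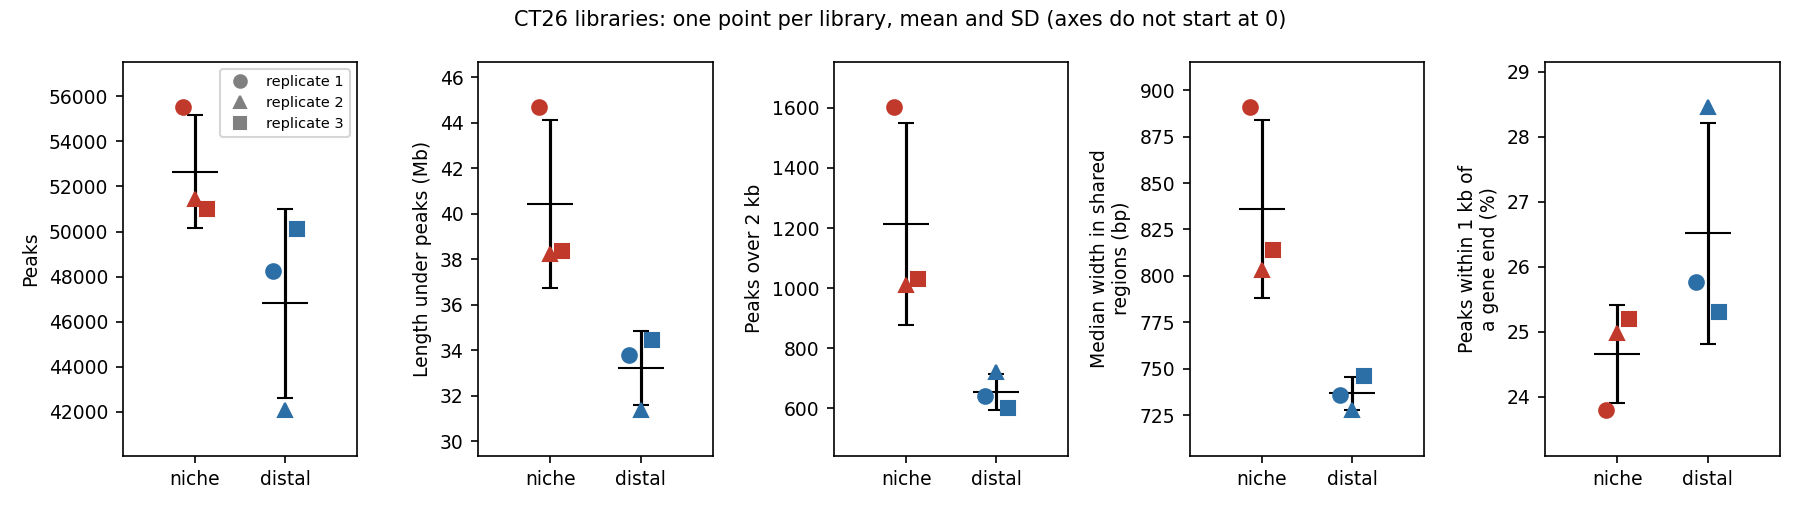
Peaks, length under peaks (Mb), peaks over 2 kb, median length under peaks in the 35630 regions held by all 6 libraries (bp) and share of peaks within 1 kb of a gene end (%), with niche left of distal; each point is 1 library, the bar is the mean and the whisker the SD of 3. Niche replicate 1 stands above the other niche libraries in the first 4 panels, and distal replicate 2 has the fewest peaks and the highest share at gene ends.

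Most open regions were common to both sites. Merging the 6 lists gave 67221 regions, of which 35630 (53.0%) were held by every library. Regions held by all 3 niche libraries and no distal library numbered 1316, or 1.96% of all regions. The opposite set, held by all 3 distal libraries and no niche library, numbered 115, or 0.171%. Of the 4721 regions that exactly 3 libraries held, niche-only regions made up 27.9% and distal-only regions 2.44%. Pairs of niche libraries shared 78.3% to 79.4% of their regions (shared over all held by either), pairs of distal libraries 75.2% to 76.5%, and mixed pairs 70.1% to 76.7%.

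The size of the imbalance depended on which peaks were used. With the 42067 highest-ranked peaks of each library, by the deposited -log10 p, niche-only regions numbered 618 and distal-only regions 362. Without niche replicate 1 and distal replicate 2, the longest and the shortest list, they numbered 2121 and 1074, where only 2 libraries a site had to agree. With peaks at a deposited -log10 q of at least 5 they numbered 1056 and 40.

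**Figure D2:**
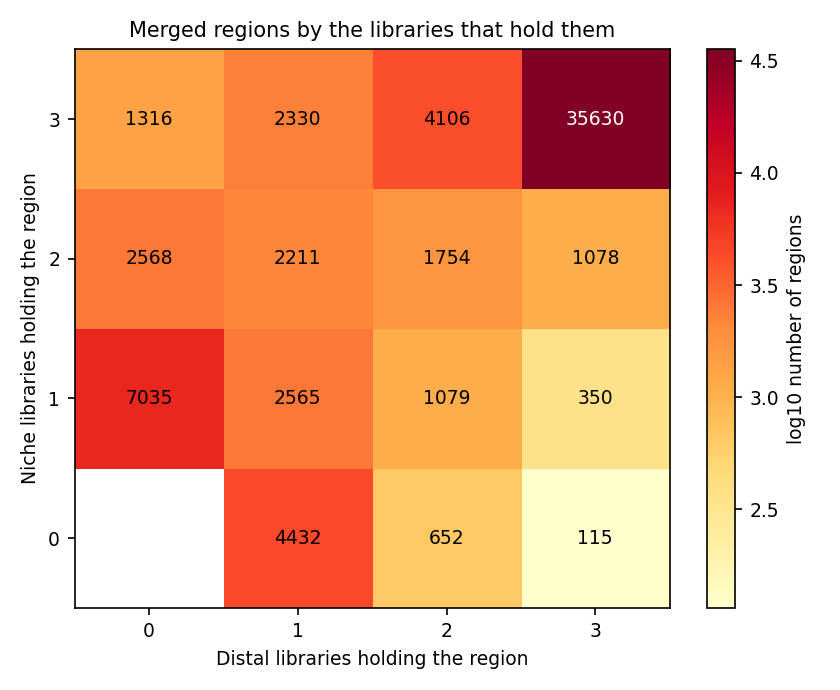
Number of merged regions by how many of the 3 niche libraries (rows) and of the 3 distal libraries (columns) hold them, coloured by log10 of the number. The 35630 regions held by all 6 fill the top right, the 1316 niche-only regions the top left and the 115 distal-only regions the bottom right; 7035 regions were held by 1 niche library alone and 4432 by 1 distal library alone.

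Regions seen at a single site ranked low in the lists, though no lower than other regions of 3 libraries. Ranked by the deposited -log10 p within each list, they had a median percentile of 20.6 for niche-only and of 17.7 for distal-only regions, against 15.5 for the other regions held by exactly 3 libraries and 62.6 for regions held by all 6. Niche-only regions lay within 1 kb of a gene end in 7.90% of cases and inside gene bodies in 54.3%, close to the 7.51% and 54.2% of the other regions held by exactly 3 libraries. Distal-only regions lay outside genes in 55.7% of cases, against 38.3% of those others. A peak over 2 kb was present in at least 1 library in 2060 regions and in all 6 libraries in 282. Regions with such a peak in all 3 niche libraries but in no distal library numbered 83, and 4 were of the opposite kind. The niche lists held more peaks over 2 kb to begin with.

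The niche-only regions that ranked highest were short. The first lay 73454 bp from Zfp36l2, which encodes an mRNA decay factor (chromosome 17, 84110004 to 84110470), at a mean percentile of 72.5. It held 467, 258 and 251 bp under peaks in the niche libraries and none in the distal libraries. Others lay inside Ankle2, a nuclear envelope protein gene (chromosome 5, 110243739 to 110244375; percentile 63.5), and Dysf, a membrane repair protein (chromosome 6, 84173585 to 84173976; 61.7). Further regions of the first 8 lay inside Synrg and Tmem116, 27317 bp from the kinase gene Map4k3 and 6178 bp from the co-chaperone gene Bag3, at percentiles of 59.2 to 60.5. The distal-only regions reached lower ranks. Their first was 73436 bp from Map2, a neuronal microtubule protein (chromosome 1, 66101402 to 66101766; percentile 47.2). A region inside Pde4d, a cyclic AMP phosphodiesterase, followed (chromosome 13, 109789220 to 109789512; 42.3). The rest lay nearest to Rnf144b, Taco1, S1pr3, Fam181a and Ptgdr or inside Snx19, at percentiles of 33.5 to 42.3.

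At the level of genes, the locus of the interferon-induced GTPase Iigp1 had the largest log2 change among loci open at both sites, and that of the DNA demethylation enzyme Tet2 was the one that lost. A locus is the gene with 10 kb on each side, and its value is the length under peaks, scaled so that all libraries have the same total covered length and given below in kb. The log2 change is that of the scaled length plus 500 bp, niche minus distal, with its SE. A peak in 3 or more libraries was required of a locus, which left 16295 protein-coding loci. Of these, 8 were higher in the niche (0.0491%) and 1 was lower (0.00614%) by limma at an adjusted p under 0.05. At an unadjusted p under 0.05 there were 2132 loci in both directions.

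Iigp1 (chromosome 18, 60373616 to 60392634) encodes an immunity-related GTPase that assembles on vacuoles of intracellular parasites. Its locus held 2.74, 3.22 and 4.49 kb in the niche libraries and 0.841, 0.427 and 0.397 kb in the distal libraries. The lowest niche library was more than 3 times the highest distal one, and the 2 groups did not overlap. The log2 change was 1.92 ± 0.20 (limma adjusted p = 0.0360). The region that differed most covered an end of the gene (60391161 to 60394434) and held 1398, 1874 and 2979 bp under peaks in the niche libraries and none in the distal libraries.

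Gbp8 (chromosome 5, 105012513 to 105053609), a guanylate-binding protein gene, was the other interferon-inducible GTPase to pass. Its locus held 0.750, 0.777 and 0.786 kb in the niche libraries and no peak in any distal library (limma adjusted p = 0.0470). The niche libraries were close to one another, and the length lay in 1 region at an end of the gene. No fold is given against a group at 0. Such a group has no spread, and a locus like this met the minimum of 3 libraries through the niche alone, so that it had to differ. The limma p of Gbp8 and of the next 4 loci can therefore be too small.

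Zfp652, a zinc finger repressor gene (chromosome 11, 95749067 to 95764715), held 1.09, 1.67 and 1.61 kb in the niche libraries and no peak in the distal libraries (limma adjusted p = 0.0209). Its region that differed most lay 6095 bp outside the gene. Enox1, a cell surface oxidase gene (chromosome 14, 77156248 to 77721763), held 1.10, 1.07 and 1.74 kb in the niche and none in distal lung (limma adjusted p = 0.0323). Fam78a (chromosome 2, 32045969 to 32087472) and the connexin gene Gjb5 (chromosome 4, 127354809 to 127358164) likewise had peaks at the niche alone, with 0.841, 1.25 and 1.56 kb and with 1.05, 0.925 and 1.13 kb.

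The remaining 2 loci that rose were open at both sites. Fbxo41, an F-box protein gene (chromosome 6, 85469574 to 85502994), held 1.50, 1.63 and 1.88 kb in the niche libraries and 0.368, 0.340 and 0.406 kb in the distal libraries (log2 change 1.31 ± 0.11, limma adjusted p = 0.0209). The predicted gene Gm826 (chromosome 2, 160311393 to 160349052) held 2.04, 2.14 and 2.21 kb in the niche and 0.738, 0.820 and 0.995 kb in distal lung (0.97 ± 0.10, limma adjusted p = 0.0360). In both, each site was narrow in its spread and the groups stood well apart.

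Tet2 (chromosome 3, 133463677 to 133545136) encodes a dioxygenase that oxidises 5-methylcytosine. Its locus held 1.33, 1.45 and 1.17 kb in the niche libraries and 2.81, 3.18 and 2.80 kb in the distal libraries, so every niche library was below every distal library. The log2 change was -0.92 ± 0.09 (limma adjusted p = 0.0360). Before scaling the lengths were 1.62, 1.51 and 1.22 kb in the niche and 2.58, 2.71 and 2.62 kb in distal lung, again without overlap. The region that differed most lay inside the gene (133531522 to 133532615) and held 250 bp in niche replicate 1, none in the other niche libraries, and 798, 1016 and 973 bp in the distal libraries.

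None of the 9 calls held among stronger peaks or without a niche library, where not all of them could be tested. With peaks at a deposited -log10 q of at least 5, the Iigp1 locus held no peak in any library, and Tet2 held 1.15, 1.51 and 1.22 kb before scaling in the niche and 1.17, 1.17 and 1.17 kb in distal lung. Only Tet2 and Gm826 of the 9 could be tested there, and neither passed; the change of Gm826 turned to -0.06. Without niche replicate 1, 2 or 3 the counts of higher and lower loci were 0 and 0, 2 and 0, and 0 and 0. In each of these fits 4 of the 9 loci could be tested and none passed, so the 2 were other loci. Without distal replicate 1, 2 or 3 the counts were 5 and 0, 0 and 0, and 7 and 0. Fbxo41, Gjb5 and Zfp652 passed both without distal replicate 1 and without distal replicate 3, Iigp1 without the first of these and Gm826 without the second. At an unadjusted limma p under 0.05 these fits had 1453 to 2021 loci, and the direction was kept in all 9 loci wherever 1 library was left out and the locus could be tested.

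**Figure D3:**
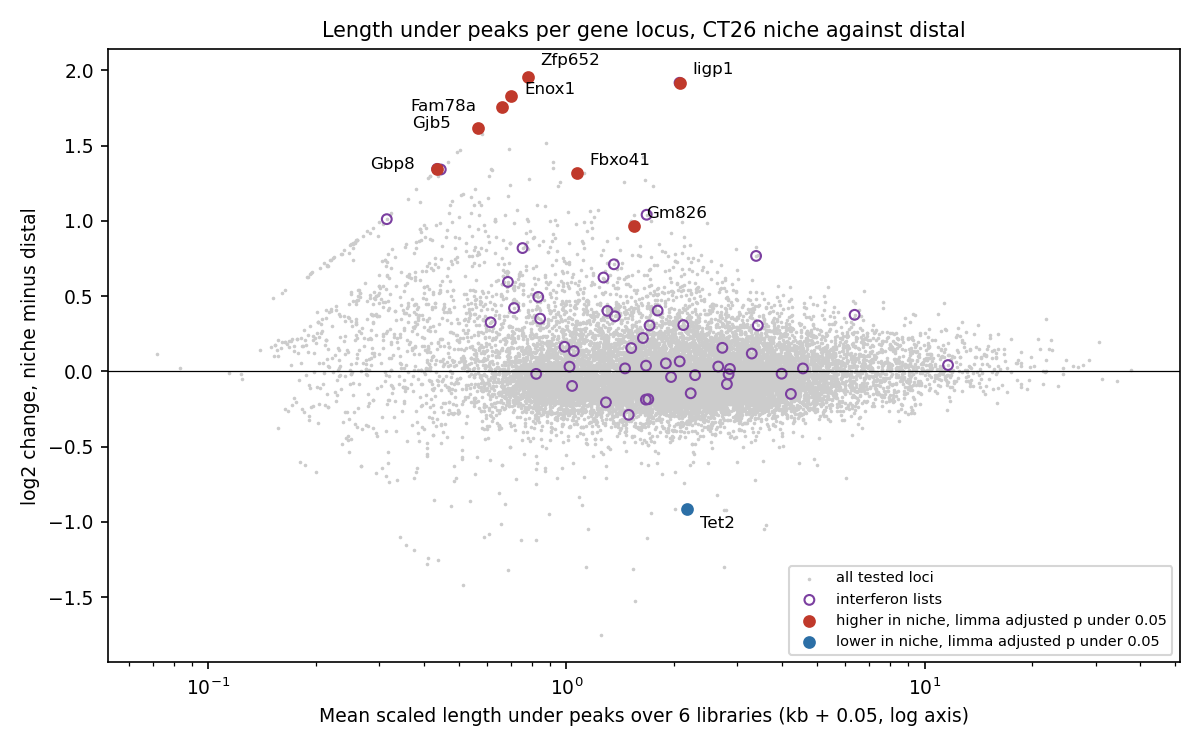
Log2 change (niche minus distal) of the scaled length under peaks against the mean scaled length over 6 libraries (kb plus 0.05, log axis) for 16295 loci. The 8 loci higher and the 1 locus lower by limma are filled, the members of the interferon lists are open circles, and the diagonal edge at the upper left is made by loci without a peak in the distal libraries.

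Loci just short of the threshold are given as values. Bmp8b, a bone morphogenetic protein, held 0.662, 1.25 and 0.802 kb in the niche and none in distal lung (limma adjusted p = 0.0731). Mybl2, a cell cycle transcription factor, held 1.51, 1.53 and 2.30 kb in the niche and 0.570, 0.580 and 0.560 kb in distal lung (limma adjusted p = 0.0731). The groups did not overlap in Mybl2. Bmp8b met the minimum of 3 libraries through the niche alone, so its groups had to differ and its limma p can be too small.

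On the lower side, Necab1, a neuronal calcium-binding protein gene, held 0.678, 0.631 and 0.339 kb in the niche and 1.77, 1.37 and 1.83 kb in distal lung (limma adjusted p = 0.106). Ntrk2, the receptor of brain-derived neurotrophic factor, held 2.09, 1.65 and 1.40 kb in the niche and 3.28, 3.45 and 4.32 kb in distal lung (limma adjusted p = 0.112). The groups stood apart in both, and likewise in Abca12, Sorcs1, Arih1, Pim1 and Adgrb3, with log2 changes of -0.50 to -0.94. Serpina16 and Spin2f were without peaks in the niche and met the minimum of 3 libraries through distal lung alone.

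Interferon genes stood apart from most loci in how often all niche libraries exceeded all distal libraries. Over all 16295 loci this held for 1137 (6.98%), and all niche libraries lay below all distal libraries in 2573 (15.8%). Without scaling these shares were 34.6% and 0.454%, and with scaling to the regions held by all 6 libraries 12.8% and 7.72%, since the median log2 change of all loci was -0.04 with the scaling used here, 0.18 with none and 0.04 with the last. Among 17 tested interferon-inducible GTPase loci, 8 had every niche library above every distal library (47.1%) and 1 had every niche library below. Their median log2 change was 0.22, and 0.44 without scaling. Among 32 interferon signalling and target loci, 12 had every niche library above (37.5%) and 2 below, with a median of 0.15, and 0.35 without scaling. By limma, Iigp1 and Gbp8 passed and none of the signalling and target loci did, though 10 of those were positive and 1 negative at an unadjusted p under 0.05. Without scaling the counts above were 11 of 17 and 17 of 32, against the 34.6% of all loci. With 2 kb flanks they were 5 of 15 and 9 of 31, against 6.48% of all loci, and with 50 kb flanks 9 of 17 and 7 of 32, against 7.57%. Neighbours share peaks, and the 8 and 12 loci lay in 7 and 9 separate stretches.

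Among the Irg genes, Irgm2, a regulatory GTPase of this family, held 0.837, 0.830 and 0.932 kb in the niche libraries and 0.498, 0.371 and 0.351 kb in the distal libraries. Its neighbour Igtp (Irgm3) held 1.93, 2.94 and 2.19 kb in the niche and 1.92, 1.82 and 1.61 kb in distal lung, where the lowest niche and the highest distal library nearly met. Both share the region that differed most. Ifi47 held 2.53, 2.28 and 2.15 kb in the niche and 1.26, 0.376 and 1.15 kb in distal lung, with distal replicate 2 far below the rest (log2 change 1.04 ± 0.25, limma adjusted p = 0.204). Tgtp1 held 1.57, 1.34 and 1.55 kb in the niche and 0.913, 0.834 and 1.30 kb in distal lung. Gm4951, an Iigp1-like gene model, held 0.908, 0.456 and 1.01 kb in the niche and none in distal lung.

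The Gbp family was divided, also within its clusters. On chromosome 5, where Gbp8 lies, Gbp4 held 1.68, 1.64 and 1.91 kb in the niche libraries and 1.34, 1.60 and 1.34 kb in the distal libraries, while Gbp6 and Gbp9 overlapped between the sites, with log2 changes of 0.07 and -0.10. In the chromosome 3 cluster, Gbp2, Gbp3, Gbp5 and Gbp7 overlapped between the sites, and Gbp2b lay lower in the niche (1.37, 1.54 and 1.61 kb) than in distal lung (1.81, 1.88 and 1.64 kb). The change of Gbp2b was -0.18 with scaling and 0.03 without. Irgm1 overlapped as well, with 3.35, 4.09 and 4.30 kb in the niche and 4.02, 4.45 and 3.41 kb in distal lung. Genes of these families are near copies of one another, so reads can be split between them or dropped; how the authors treated such reads is not given in the sources used here.

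Of the interferon receptors, Ifnar1 held 1.50, 1.69 and 1.53 kb in the niche libraries and 1.38, 1.37 and 1.33 kb in the distal libraries. Ifngr2, a chain of the interferon-gamma receptor, ran the other way, with 1.12, 1.16 and 1.45 kb in the niche and 1.95, 1.48 and 1.48 kb in distal lung. With 50 kb on each side both turned round, to -0.02 for Ifnar1 and 0.17 for Ifngr2. Ifnar2 and Ifngr1 overlapped between the sites.

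Of the kinases and factors downstream, Jak1 held 7.60, 6.51 and 7.50 kb in the niche and 4.98, 5.30 and 6.06 kb in distal lung (log2 change 0.38 ± 0.10, limma adjusted p = 0.238). Jak2 held 3.61, 3.90 and 3.82 kb in the niche and 3.10, 2.76 and 3.03 kb in distal lung (0.31 ± 0.08, limma adjusted p = 0.245). Both kinases had their most different region inside the gene. When every list was cut to 42067 peaks the change of Jak1 was -0.20.

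Stat2, part of the complex that binds the ISRE, held 1.53, 1.83 and 1.40 kb in the niche and 0.966, 0.756 and 0.832 kb in distal lung. The groups did not overlap, but the region that differed most lay 4834 bp outside the gene, and with 50 kb flanks the change was -0.00345, against 0.62 ± 0.11 here (limma adjusted p = 0.138). Irf1 and Irf9 overlapped between the sites. Irf7, a master factor of type I interferon genes, was lower in the niche at 1.35, 1.49 and 1.59 kb, against 1.70, 1.62 and 1.94 kb in distal lung; without scaling its change was 0.03.

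The antiviral targets were mixed. Isg15, Usp18, Xaf1, Ifih1, Bst2 and Ifit1 overlapped between the sites with log2 changes of -0.02 to 0.05, and Ddx58, Zbp1, Oasl1 and Oasl2 overlapped as well. Others did not overlap. Ifit2, an RNA-binding inhibitor of translation, held 5.20, 4.37 and 3.47 kb in the niche libraries and 2.61, 2.16 and 2.20 kb in the distal libraries (log2 change 0.77 ± 0.14, limma adjusted p = 0.140). Its neighbour Ifit3 held 1.54, 1.59 and 1.50 kb in the niche and 1.04, 1.15 and 1.06 kb in distal lung. The niche libraries of Ifit3 differed little from one another and stood above every distal library.

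Oas1a and Oas1g, which make the messenger that activates RNase L or belong to that family, share the region that differed most, at an end of Oas1g. That region held 1308, 1028 and 1077 bp under peaks in the niche libraries and 464, 300 and 248 bp in the distal libraries. Oas1g as a locus held 1.08, 0.990 and 1.03 kb in the niche and 0.506, 0.352 and 0.265 kb in distal lung (log2 change 0.82 ± 0.13, limma adjusted p = 0.113). Oas3 had peaks in the niche alone, at 0.368, 0.377 and 0.844 kb. Ifi44 held 0.987, 0.840 and 0.677 kb in the niche and 0.433, 0.519 and 0.528 kb in distal lung. Rsad2 (viperin) differed less, with 1.01, 1.09 and 1.10 kb in the niche and 0.966, 0.979 and 0.840 kb in distal lung.

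**Figure D4:**
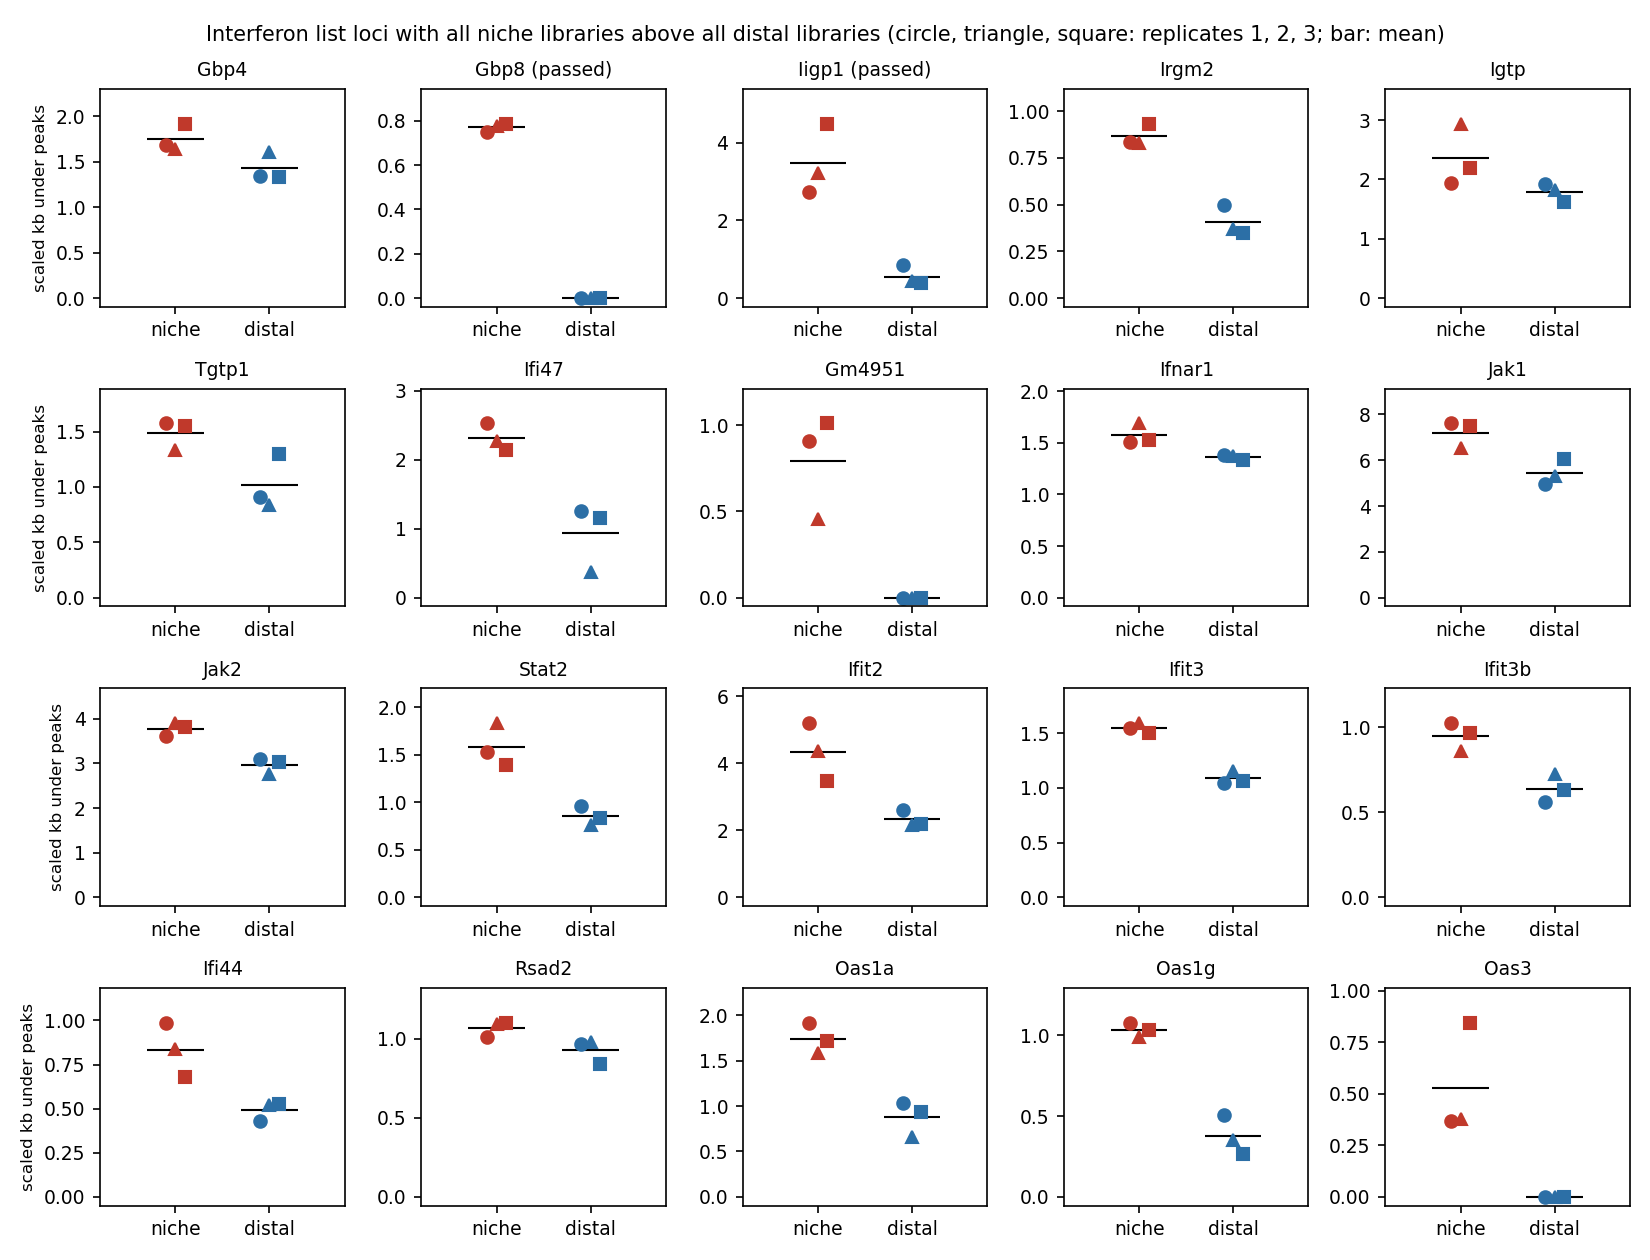
Scaled length under peaks (kb, each axis from 0) at the 20 loci of the 2 interferon lists in which every niche library lay above every distal library, with niche left of distal; each point is 1 library and the bar is the mean of 3. The loci were picked for this pattern, so the absence of overlap is how they were chosen; Iigp1 and Gbp8 alone passed by limma.

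Several interferon loci kept their difference among the stronger peaks, unlike most of the 9 calls; these were picked after their values were seen. With peaks at a -log10 q of at least 5 and before scaling, Ifit3b held 1.25, 0.893 and 1.01 kb in the niche libraries and no peak in the distal libraries. Rsad2 held 1.23, 1.14 and 1.15 kb in the niche and 0.535, 0.390 and 0.402 kb in distal lung. Igtp held 2.35, 2.26 and 2.28 kb in the niche and 1.29, 0.926 and 1.51 kb in distal lung. Of the 14 GTPase loci and 30 signalling and target loci testable in this setting, 5 and 8 had every niche library above, against 5.62% of all loci in this setting, and 2 and 2 had every niche library below, against 20.6%.

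Promoters under peaks in the niche alone were few and included ISRE matches. A window counted as held where at least 1 base lay under a peak, and some were touched only at an edge, such as that of Cxcl14 over 43, 44 and 5 bases and that of 9930111J21Rik1 over 45, 43 and 45 bases. Of 21045 promoter windows of RefSeq, from 250 bases before to 50 after a gene's start, 67 (0.318%) were held by all 3 niche libraries and no distal library, and 6 (0.0285%) by all 3 distal libraries and no niche library. The niche libraries held 12364, 12134 and 12128 of the windows and the distal libraries 11798, 11620 and 11987. Among the 67 were those of the chemokine genes Cxcl12 and Cxcl14, the chemokine receptor Cxcr3, the B cell factor Tnfsf13b, the metallothionein Mt3, 3 histone genes and the sulfotransferase Chst2. ISRE-like letters, that is GAAA, 2 bases of any kind and GAAA again, were searched on both strands, with overlapping matches counted once per window. They were in 8 of the 67 windows (11.9%), in 3.38% of all windows, in 4.18% of those no library held and in 2.67% of those every library held. The interferon-gamma-type letters, TTC, 3 bases of any kind and GAA, were in 14.9% of the 67 and 7.76% of all windows. The AP-1 letters TGAGTCA were in 7.46% and 4.69%, and the GC box GGGCGG in 52.2% and 46.7%. In windows that no library held, the interferon-gamma-type letters were in 9.98%, the AP-1 letters in 6.4% and the GC box in 14.7%. In windows that every library held these shares were 6.28%, 3.43% and 70.1%. These matches describe letters and not bound sites.

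The promoters with ISRE-like letters belonged to Gm12250, Parp11, Tnfsf13b, Cxcl14, Ttyh1, Ranbp3l, Ebp and 9930111J21Rik1. Gm12250 is the immunity-related GTPase Irgb10, and Parp11 an ADP-ribosyltransferase. The sequences of 3 of these follow as examples of promoters under peaks in the niche libraries alone, with that of Isg15, a ubiquitin-like interferon target, which 2 niche libraries and no distal library held; these 4 were picked after their values were seen. They are from RefSeq for GRCm38.p6, 5′ to 3′ on the gene's strand, and capitals mark each ISRE-like match. A match on the other strand reads TTTC, 2 bases and TTTC.
Gm12250: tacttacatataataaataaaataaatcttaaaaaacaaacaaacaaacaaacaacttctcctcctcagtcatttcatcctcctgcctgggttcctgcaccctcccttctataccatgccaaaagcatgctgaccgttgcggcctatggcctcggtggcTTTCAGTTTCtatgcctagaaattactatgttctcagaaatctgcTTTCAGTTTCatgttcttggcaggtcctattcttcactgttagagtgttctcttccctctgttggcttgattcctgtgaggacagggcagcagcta
Parp11: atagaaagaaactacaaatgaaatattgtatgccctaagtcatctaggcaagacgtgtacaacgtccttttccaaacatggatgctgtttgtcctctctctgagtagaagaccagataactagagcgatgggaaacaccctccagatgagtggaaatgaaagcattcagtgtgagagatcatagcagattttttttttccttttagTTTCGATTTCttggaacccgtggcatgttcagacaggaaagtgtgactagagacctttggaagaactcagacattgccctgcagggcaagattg
Tnfsf13b: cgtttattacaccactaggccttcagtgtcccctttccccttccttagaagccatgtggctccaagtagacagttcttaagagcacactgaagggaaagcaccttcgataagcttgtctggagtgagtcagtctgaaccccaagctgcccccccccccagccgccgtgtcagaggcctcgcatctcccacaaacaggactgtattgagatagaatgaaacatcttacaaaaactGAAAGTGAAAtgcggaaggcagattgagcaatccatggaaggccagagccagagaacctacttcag
Isg15: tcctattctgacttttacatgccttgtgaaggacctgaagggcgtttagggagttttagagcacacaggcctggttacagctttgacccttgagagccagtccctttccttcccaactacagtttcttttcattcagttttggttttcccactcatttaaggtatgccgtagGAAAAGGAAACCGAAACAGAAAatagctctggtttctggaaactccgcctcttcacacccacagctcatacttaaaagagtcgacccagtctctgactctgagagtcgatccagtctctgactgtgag

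The Gm12250 window (plus strand, chr11:58183593-58183892) has 2 matches, both on the other strand, and 195, 300 and 300 of its bases lay under peaks in the niche libraries. The Parp11 window (plus strand, chr6:127446590-127446889) has 1 match, with 300, 254 and 238 bases under peaks in the niche libraries. Tnfsf13b (plus strand, chr8:10006383-10006682) has 1 match and 300, 238 and 115 bases. In Isg15 (minus strand, chr4:156200769-156201068) 3 matches overlap one another. It had no bases under peaks in niche replicate 1 and 222 and 204 in the others. The distal libraries had none in these 4 windows, and the Isg15 locus as a whole overlapped between the sites, at 2.38, 2.78 and 3.14 kb in the niche and 2.92, 2.46 and 3.03 kb in distal lung.

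Of the loci that passed, Enox1 and Fam78a had a promoter window under peaks in the niche libraries alone, Enox1 over 3, 300 and 300 bases and Fam78a over 272, 300 and 243 bases (minus strand, chr2:32083656-32083955). The Fam78a window is shown in contrast to those above. It holds no ISRE-like letters, and its capitals mark 3 GC boxes, on either strand and in part overlapping.
Fam78a: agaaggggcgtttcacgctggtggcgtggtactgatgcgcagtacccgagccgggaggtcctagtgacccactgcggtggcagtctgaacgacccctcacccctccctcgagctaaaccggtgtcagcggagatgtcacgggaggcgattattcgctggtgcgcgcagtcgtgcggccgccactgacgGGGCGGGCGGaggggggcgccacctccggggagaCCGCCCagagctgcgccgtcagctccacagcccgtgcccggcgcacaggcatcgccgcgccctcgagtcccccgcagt

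Region by region, 77 of 49969 regions held by at least 3 libraries were longer in the niche (0.154%) and 9 were shorter (0.018%) by limma on log2 of the scaled length plus 200 bp (adjusted p under 0.05). At an unadjusted p under 0.05 there were 7952. Of the 77, 61 had no peak in a distal library, and 16 were held at both sites. The 61 met the minimum of 3 libraries through the niche alone and had no spread in distal lung, as had 5 of the 9 in the niche, so their limma p can be too small. By position, 14 lay within 1 kb of a gene end, 36 inside gene bodies and 27 outside genes. Without any 1 library at most 1 region passed, and with at least 1 library required in place of 3 none did; at an unadjusted limma p under 0.05 these fits had 3689 to 7701 and 7467 regions.

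The region at the end of Iigp1 described above had the largest rise. Behind it came a region inside Fam120a, an RNA-binding protein gene (chromosome 13, 48914385 to 48916209), with 1685, 1813 and 1447 bp under peaks in the niche libraries and none in the distal libraries. A region 7335 bp from Bdkrb2, a bradykinin receptor gene (chromosome 12, 105554242 to 105555837), held 1358, 1448 and 1517 bp in the niche and none in distal lung. Those nearest to Nrsn1 and Ints7 and those at Enox1 and Kifap3 were of the same kind, with 937 to 1586 bp in the niche libraries.

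The longer regions held at both sites had peaks in distal lung and more length under peaks in the niche. Whether a peak widened or a further peak lay in the region was not examined. Lengths of regions are given in bp before scaling, and the log2 changes after it. Inside Ptch1, the receptor of Hedgehog ligands, a region (chromosome 13, 63563334 to 63566629) held 3209, 2085 and 2236 bp under peaks in the niche libraries and 679, 575 and 651 bp in the distal libraries (log2 change 1.44 ± 0.11, limma adjusted p = 0.0339). Inside Tcf7l2, the transcription factor at the end of the Wnt pathway, a region (chromosome 19, 55794342 to 55795879) held 1538, 1424 and 1340 bp in the niche and 336, 356 and 398 bp in distal lung (1.32 ± 0.09, limma adjusted p = 0.0339). Every niche library was well above every distal library in both, before and after scaling.

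Inside Tead1, the DNA-binding partner of YAP, a region (chromosome 7, 112822600 to 112824013) held 1414, 1307 and 1354 bp in the niche and 436, 352 and 358 bp in distal lung (1.21 ± 0.10). A region inside Chpt1, an enzyme of phosphatidylcholine synthesis (chromosome 10, 88491189 to 88492869), held 1681, 1248 and 1084 bp in the niche and 264, 246 and 276 bp in distal lung (1.51 ± 0.12). These 4 genes were picked after their values were seen. The 16 regions ranked at a median percentile of 54.4 by the deposited -log10 p, against 19.4 over all 77.

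Of the 9 regions that were shorter in the niche, 4 were held at both sites. The region at Pim1, a serine/threonine kinase gene (chromosome 17, 29489788 to 29493098), held 1978, 1576 and 1569 bp in the niche libraries and 3077, 2992 and 2978 bp in the distal libraries (log2 change -1.02 ± 0.09, limma adjusted p = 0.0339). That at Phlda1 (chromosome 10, 111506035 to 111507985) held 1099, 1036 and 1046 bp in the niche and 1618, 1506 and 1917 bp in distal lung (-0.82 ± 0.08, limma adjusted p = 0.0447). Both ranked high in the lists, at percentiles of 74.0 and 87.9. The others held at both sites lay inside Abhd17c and 120204 bp from Bmp4. Regions inside Rabepk and Mob3b and near Cdc42se2, Gm17019 and Gm51591 had no peak in the niche libraries.

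Markers of AT2 cells were open in both groups. All 20 surfactant and AT2 marker loci and all 15 AT2 transcription factor loci had peaks. The summed scaled length of the marker list was 83.9 to 85.9 kb in the niche and 82.0 to 94.1 kb in distal lung. None passed by limma; at an unadjusted p under 0.05, 1 marker was positive and 3 negative, and 1 factor was negative.

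The surfactant and AT2 marker list had no direction as a whole, with 10 of 20 loci positive and a median log2 change of 0.00. Some of its best known members lay lower in the niche without passing the test. Sftpc (surfactant protein C) held 4.47, 5.04 and 5.11 kb in the niche libraries and 6.17, 6.09 and 5.58 kb in the distal libraries (log2 change -0.26 ± 0.08, limma adjusted p = 0.298). Before scaling the lengths overlapped, at 5.42, 5.24 and 5.32 kb in the niche and 5.67, 5.19 and 5.22 kb in distal lung. Sftpb held 3.38, 2.83 and 3.79 kb in the niche and 4.51, 4.74 and 4.14 kb in distal lung (-0.38 ± 0.11, limma adjusted p = 0.274), and its change was 0.36 with peaks at a -log10 q of at least 5. In the marker list 6 of 20 loci had every niche library below (Sftpa1, Sftpb, Sftpc, Muc1, Fasn, Lcn2) and 2 above (Hc, Dram1), and in the list of 12 widely expressed genes 4 were below (Gapdh, Tbp, Ppia, Ywhaz) and none above, against 15.8% and 6.98% over all loci. Without scaling, no locus of the marker list had every niche library below and 8 of 20 had every niche library above. Over all loci in that setting 0.454% were below and 34.6% above.

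The lamellar body genes Abca3 and Lamp3 overlapped between the sites. Of the factors, Nkx2-1 held 4.01, 4.10 and 4.29 kb in the niche libraries and 4.59, 4.51 and 4.34 kb in the distal libraries, a change of -0.10 that became 0.15 without scaling. Cebpa and Foxa1 also had every niche library below every distal library. Of the 15 factors 3 were below and 1 was above, against 15.8% and 6.98% over all loci. Sox9, a factor of distal lung progenitors, held 0.653, 0.773 and 0.949 kb in the niche and 0.580, 0.471 and 0.622 kb in distal lung.

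Among alveolar type I markers, Pdpn differed most. Its locus (chromosome 4, 143267409 to 143299564), for the membrane glycoprotein podoplanin, held 3.18, 3.08 and 2.26 kb in the niche libraries and 1.08, 1.06 and 1.79 kb in the distal libraries (log2 change 0.89 ± 0.18, limma adjusted p = 0.168). Niche replicate 3 and distal replicate 3 came nearest to each other. Hopx, Aqp5, Col4a3 and Igfbp2 had every niche library below, so that 1 of 17 loci was above and 4 were below, and Ager overlapped. Over all loci the shares were 6.98% above and 15.8% below. No locus of the list passed by limma (1 positive and 1 negative at an unadjusted p under 0.05), and its median was 0.02, and 0.25 without scaling.

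Stem and progenitor genes were mixed. Cd44, a hyaluronan receptor, held 4.22, 3.47 and 2.89 kb in the niche libraries and 2.25, 1.95 and 2.31 kb in the distal libraries (log2 change 0.58 ± 0.13, limma adjusted p = 0.192). Lgr6, a receptor of R-spondins, held 3.52, 3.74 and 3.30 kb in the niche and 2.78, 1.70 and 2.50 kb in distal lung. In the list of 18, Cd44, Lgr6, Sox9 and Itga6 had every niche library above and Trp63 had every niche library below, and none passed by limma (2 positive and 1 negative at an unadjusted p under 0.05). Of the transitional alveolar and p53 genes, Krt18 was above and Cdkn1a, Mdm2, Sox4 and Gdf15 were below, of 20 loci, and Krt8, the keratin that marks the transitional state, overlapped. None of these passed by limma either (1 positive and 3 negative at an unadjusted p under 0.05). The counts of both lists stand beside 6.98% above and 15.8% below over all loci.

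Enzymes of DNA methylation differed in direction. Next to the fall of Tet2, Tet1 held 3.13, 3.42 and 3.20 kb in the niche libraries and 3.85, 4.17 and 3.83 kb in the distal libraries (log2 change -0.25 ± 0.08, limma adjusted p = 0.299). Dnmt1, the maintenance methyltransferase, held 4.30, 3.93 and 4.84 kb in the niche and 1.69, 2.86 and 2.57 kb in distal lung (0.78 ± 0.16, limma adjusted p = 0.185). A region inside Dnmt1 (chromosome 9, 20943475 to 20945557) with 1888, 901 and 1446 bp in the niche libraries and none in the distal libraries was one of the 61 regions whose limma p can be too small. Uhrf1, which brings Dnmt1 to DNA, and Tdg, which excises oxidised methylcytosine, had every niche library below, and Tet3, Dnmt3a and Dnmt3b overlapped. Only Tet2 of the 8 passed. In the list 1 locus had every niche library above and 4 had every niche library below, against 6.98% and 15.8% over all loci.

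Among Hox genes, the patterning factors of the body axis, peaks were few and lay mostly in the niche lists. Of 20 genes, 11 could be tested, and 5 of these had every niche library above in 2 stretches of the genome, Hoxb7, Hoxb8 and Hoxb9 among them. Hoxb8 held 1.21, 1.01 and 0.772 kb in the niche and 0.344, 0.403 and 0 kb in distal lung. With peaks at a -log10 q of at least 5 no Hox locus could be tested, and with lists of 42067 peaks each 4 could and none had every niche library above. No Hox locus passed by limma, and 5 were positive at an unadjusted p under 0.05.

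**Figure D5:**
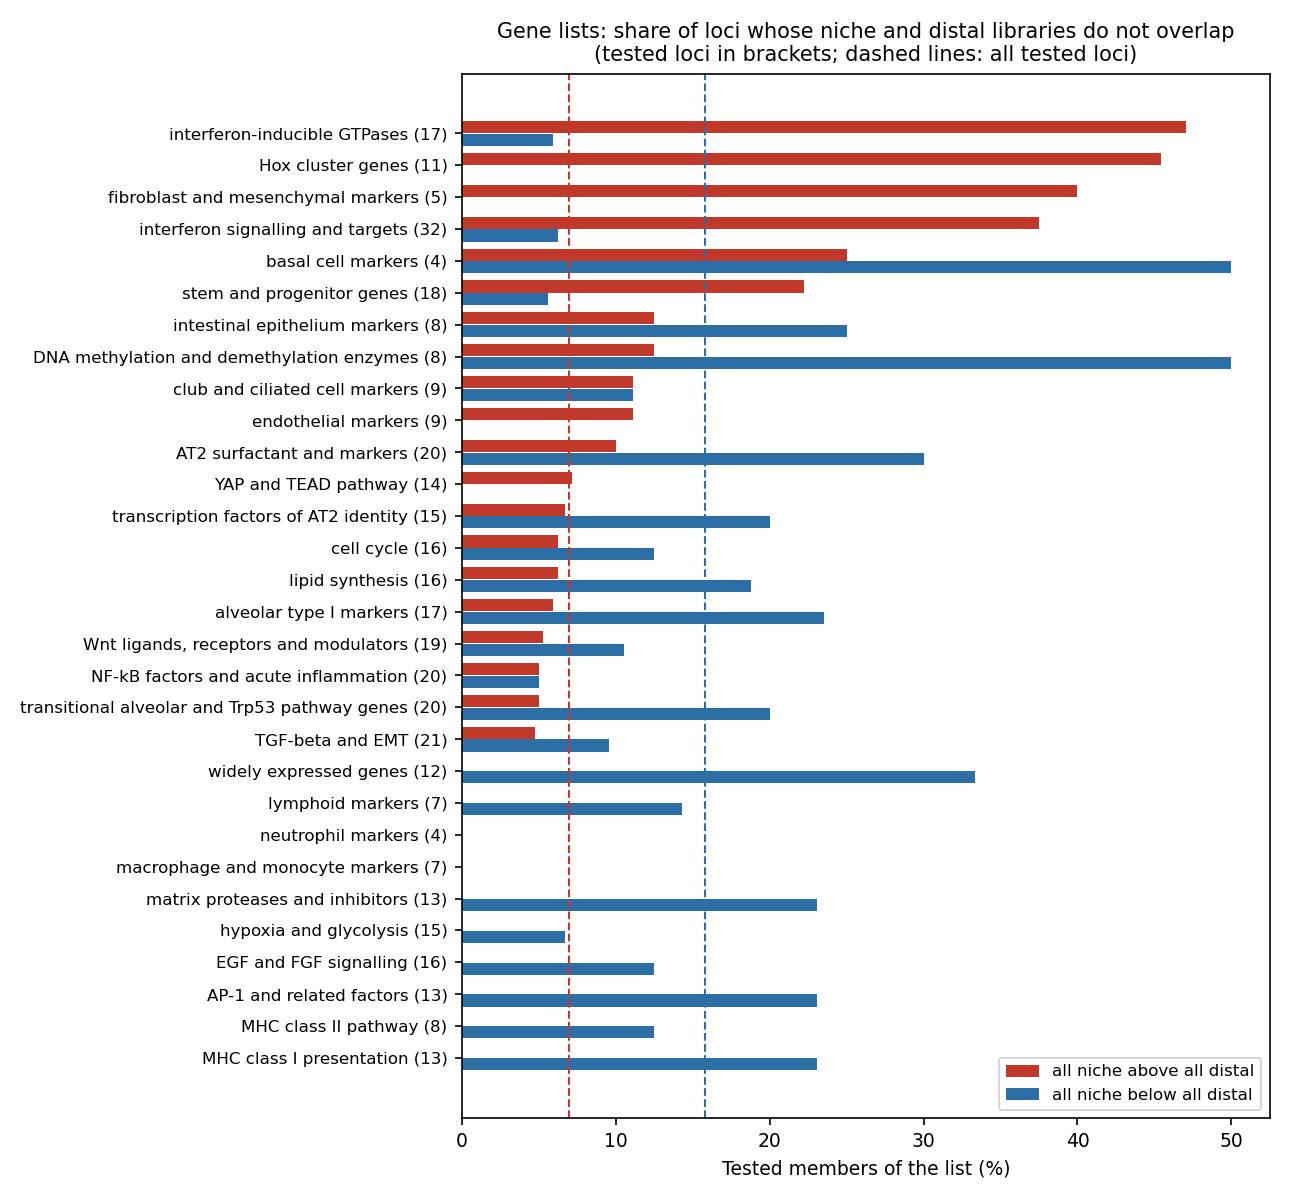
Share of tested loci (%) in each of 30 gene lists in which every niche library lay above (red) or below (blue) every distal library, with the number of tested loci in brackets and dashed lines at 6.98% and 15.8%, the shares over all tested loci. The interferon-inducible GTPases (47.1% above) and the Hox genes lead the upper bars; lists of 4 to 9 loci give coarse shares.

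The remaining pathways held no locus that passed by limma. Over all loci 6.98% had every niche library above and 15.8% had every niche library below, and most counts that follow lay near these shares. MHC class I presentation had 0 loci with every niche library above and 3 with every niche library below, of 13, and the MHC class II pathway 0 and 1 of 8. AP-1 and related factors had 0 and 3 of 13 (Fosl1, Junb, Maff), and NF-kB and acute inflammation 1 (Tnfaip2) and 1 (Lif) of 20. YAP and TEAD pathway loci had 1 above (Ajuba) and none below of 14, TGF-beta and EMT loci 1 (Cdh2) and 2 of 21, and Wnt loci 1 (Tcf7l2) and 2 (Wnt3a, Sfrp4) of 19. EGF and FGF signalling had 0 and 2 of 16, lipid synthesis 1 (Acly) and 3 of 16, hypoxia and glycolysis 0 and 1 of 15, matrix proteases 0 and 3 of 13, and the cell cycle 1 (Cdk1) and 2 of 16. In these 12 lists 0 or 1 locus each was positive and 0 to 3 were negative at an unadjusted p under 0.05.

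Markers of other cell types were partly open in both groups. The fibroblast and mesenchymal list had a summed scaled length of 6.59 to 9.43 kb in the niche libraries and 4.59 to 5.62 kb in the distal libraries, without overlap. Of its 11 genes, Col3a1, Dcn, Lum and Postn had no peak in any library, 5 loci could be tested, and Pdgfra and Tbx4 had every niche library above. Over all loci this share was 6.98%. Tbx4, a factor of lung mesenchyme, held 1.06, 1.18 and 0.575 kb in the niche and 0.291, 0.372 and 0 kb in distal lung (log2 change 1.01 ± 0.26, limma adjusted p = 0.237). Without niche replicate 1 and distal replicate 2 the median of the list was 0.09, against 0.51 with all libraries. What part such cells had in the results above was not tested.

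The sums overlapped for the other types. They were 15.8 to 19.6 kb in the niche and 16.9 to 18.1 kb in distal lung for endothelial markers, 13.1 to 15.7 kb in the niche and 12.7 to 14.4 kb in distal lung for macrophage and monocyte markers, and 2.35 to 3.48 kb in the niche and 1.93 to 2.56 kb in distal lung for neutrophil markers. Lymphoid markers summed to 8.64 to 11.2 kb in the niche and 9.90 to 12.5 kb in distal lung. Adgre1, Marco, Siglecf and C1qa had no peak in any library, nor had S100a8, S100a9, Mpo, Camp, Cd8a, Ms4a1 and Ncr1. Ptprc (CD45), the gene of all leukocytes, held 0.685 kb before scaling in niche replicate 1, 0.245 kb in niche replicate 2 and none in the other libraries, and so was not tested. Pecam1, an endothelial adhesion gene, held 2.52, 2.95 and 1.69 kb in the niche and 2.01, 0.877 and 1.32 kb in distal lung, with overlap. Of 9 tested endothelial loci only 2 were positive, Pecam1 and Flt1, each at an unadjusted limma p under 0.05. Flt1 had every niche library above, and the median log2 change of the 9 was -0.17. Epcam, an epithelial adhesion gene, overlapped between the sites. Of intestinal markers, as carried by colon carcinoma cells, Cdx1 had every niche library above, Cdx2 had every niche library below, and Krt20, Tff3 and Fabp1 had no peak. The sums were 9.94 to 13.0 kb in the niche and 12.3 to 13.0 kb in distal lung. Basal cell markers summed to 3.82 to 6.28 kb in the niche and 5.44 to 5.93 kb in distal lung, and club and ciliated markers to 16.9 to 18.9 and 17.9 to 20.7 kb.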

How the data were processed

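Omni-ATAC-seq was measured in 6 AT2 samples, 3 from the CT26 niche and 3 from distal lung, grouped by their titles. The authors deposited 1 broad peak list per sample, giving each peak's start and end (bp) with its significance as -log10 p and, after adjustment, as -log10 q; per the submitters' processing notes MACS2, bedtools and GRCm38 were used. The sources used here name no aligner, filter or version, and lists without read counts give no depth per sample. Peaks on the autosomes and X were merged over the 6 lists at an overlap of at least 1 bp, and 16 peaks on Y were left out. Length under peaks was summed per region and per protein-coding gene of RefSeq (21631 genes, 10 kb flanks), divided by each library's total covered length relative to the mean, and tested with limma 3.58.1 in R 4.3.3 (trended eBayes, 2 groups, no covariate) on log2 of the length plus 500 bp (loci) or 200 bp (regions), for features present in at least 3 libraries, with Benjamini-Hochberg adjustment over all of them and a threshold of 0.05. Library measures were compared by exact permutation tests, two-sided. The code was tested on simulated data. Loci named are all that passed the threshold, 8 higher and 1 lower, and set marker genes. In each direction, loci nearest to the threshold by p whose groups did not overlap were added. Others are said to be chosen after their values were seen. Members and lists were chosen with earlier results of these data known. Alternatives changed the scaling, added length, minimum, trend, flanks, peak threshold and peak number, and left out each library. Some genes that meet these rules are not reported here.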

Additional observations from a re-analysis of the deposited data

How the results depend on the processing

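Peak number, covered length and the share at gene ends kept their direction without any 1 library, by 3477 to 7490 peaks, 5.11 to 8.34 Mb and -2.46 to -0.883 percentage points (niche minus distal). At a -log10 q of at least 5 the groups overlapped in peak number and in the share at gene ends (exact permutation p = 0.2 for both). Counts of calls moved with most settings. Higher and lower loci numbered 204 and 3 without scaling, 26 and 1 with scaling to shared regions, 15 and 2 with a minimum of 1 library, 40 and 5 without the trend, 24 and 3 with 2 kb flanks, 26 and 10 with 50 kb flanks, 38 and 0 at a -log10 q of at least 5 and 1 and 2 with 42067 peaks per list; without 1 library they ran from 0 to 7 and were 0. Longer and shorter regions numbered 530 and 20 without scaling, 208 and 17 with scaling to shared regions, 37 and 4 with 100 bp added, 0 and 0 with a minimum of 1 library, 1265 and 130 without the trend, 926 and 54 at the higher q and 197 and 82 with 42067 peaks per list; without 1 library they ran from 0 to 1 and were 0. Niche-only and distal-only regions numbered 618 and 362 with 42067 peaks per list, 1056 and 40 at the higher q, 1988 and 134 where peaks had to cover 50% of the region, and 1649 to 2475 and 184 to 530 without 1 library. Without niche replicate 1 and distal replicate 2, a setting chosen after seeing the data, no locus or region passed and these sets held 2121 and 1074. With the replicate number as a replicate block 0 loci and 0 regions passed (1957 and 6559 at an unadjusted limma p under 0.05). Over loci, in deviations from the group means, same-numbered niche and distal samples correlated at 0.012, 0.017 and -0.041. Other mixed pairs ran from -0.090 to 0.088. With 3 libraries a site, these values cannot show whether same-numbered samples came from the same lungs. The causes were not tested.

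All 9 calls held with no scaling, scaling to shared regions, double the added length, a minimum of 1 library and no trend. With a smaller added length 8 of the 9 held, without Gbp8. With 2 kb flanks 7 of the 8 that could be tested held, and with 50 kb flanks 2 of 9 (Enox1 and Iigp1). With 42067 peaks per list 1 of the 8 that could be tested held (Gm826), and Iigp1 and Tet2 did not pass. Of 920 values of named loci under an alternative, 802 stayed as they were, 28 passed where they had not, 61 no longer passed and 29 changed sign. Without scaling the log2 change was 0.15 for Nkx2-1, 0.0088 for Sftpa1, 0.17 for Lamp3, 0.24 for Abca3, 0.11 for Epcam, 0.031 for Gbp2b and 0.026 for Irf7; with scaling to shared regions it was 0.0066 for Lamp3 and 0.069 for Abca3. At the higher q it was 0.0052 for Sftpa1, 0.068 for Hopx, 0.36 for Sftpb, -0.31 for Ager and -0.063 for Gm826. With 2 kb flanks it was 0.14 for Sftpc, -0.071 for Krt8 and -0.19 for Ager. With 50 kb flanks it was -0.0035 for Stat2, -0.012 for Ager, -0.021 for Ifnar1 and 0.17 for Ifngr2. With 42067 peaks per list it was 0.019 for Lamp3, -0.21 for Ager and -0.20 for Jak1. Without 1 library it ran from -0.17 (distal replicate 3) to 0.19 for Krt8, with -0.037 without niche replicate 1, from -0.16 to 0.14 (distal replicate 2) for Abca3, and was -0.030 without niche replicate 2 for Ager. Without niche replicate 1 and distal replicate 2 it was 0.13 for Abca3.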
